A study of Caenorhabditis elegans with 2 samples.

Results

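Cytochrome P450 enzymes are encoded in Caenorhabditis elegans by genes whose symbols begin with cyp-, and 74 of the 19973 protein-coding genes of the nuclear chromosomes in the WBcel235 annotation carried such a symbol. They were chosen by symbol alone, without any measured value, but with earlier results of these data known. The data are chromatin immunoprecipitation and sequencing (ChIP-seq) peaks of eGFP-tagged PQM-1, a zinc finger transcription factor, in whole worms. Both samples, which are biological replicates of the only group, came from L3 larvae of strain OP201, with genotype unc-119(tm4063) III and the transgene wgIs201, and with males and females pooled. All animals thus carried the unc-119 mutation and the tagged transgene, and neither untagged worms nor a second condition enter the comparisons. The labels leave out the age in hours, the number of transgene copies and the extraction protocol.

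P450 enzymes hold a heme group and insert an oxygen atom into fatty acids, sterols and foreign compounds, taking electrons from a reductase and from cytochrome b5. In C. elegans many of them act in the intestine, where subfamilies such as cyp-35A rise when worms meet xenobiotics, and many lie in tandem arrays that arose by gene duplication. PQM-1 acts largely in the intestine and is known for its association with the GATA-like sequence TGATAAG, called the DAF-16 associated element, upstream of stress and growth genes.

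The relaxed lists hold 26022 peaks for replicate 1, 30000 for replicate 2 and 30000 for the pool of both. A shorter list, which its file name calls optimal and thresholded on the irreproducible discovery rate, holds 5560 peaks. Of these, 5197 (93.5%) overlapped a relaxed peak of replicate 2, so an optimal peak was not always seen in both replicates. Each peak has a signal, the authors' own score with its scale not stated, used here only to rank and describe peaks within a list. No list gives reads, so the depth is unknown. A gene is called bound here when the summit of an optimal peak lay in its promoter, a window that starts 1000 bp before the 5' end and ends 250 bp past it, and positions are given in bp from that end, negative upstream. Since the worms were taken whole, binding in a few cells and weak binding in many cannot be told apart.

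Of the 74 P450 genes, 23 were bound (31.1%, exact 95% interval 20.8 to 42.9), beside 16.3% of all protein-coding genes. A further 24 had a promoter summit in the relaxed pooled list only, and 27 had none in either list. Counting the relaxed list as a whole, 47 P450 genes (63.5%) had a promoter summit, beside 45.1% of all genes. Side by side with other families of detoxification enzymes, 33 of 67 ugt- genes (49.3%), which encode UDP-glucuronosyltransferases, and 15 of 44 gst- genes (34.1%), which encode glutathione transferases, were bound. Intervals are Clopper-Pearson and cover counting error only. Neighbouring P450 genes can share a peak and a sequence, so the genes are not independent, and no test of the family was made.

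The 23 bound genes were served by 22 optimal peaks. For 21 of the 22 the nearest 5' end of any protein-coding gene was that of a P450 gene. The exception was the peak of cyp-13B1, at -181, which lay at -112 from C29F7.1. A single peak lay in the promoters of 2 P450 genes, cyp-33C6 and cyp-33C7. Peaks of cyp-33E2, cyp-35A2, cyp-35C1 and cyp-13B1 also lay in the promoter of 1 gene of another kind each, F42A9.17, exc-13, oac-3 and C29F7.1. In all, 5 of the 22 peaks (22.7%) lay in more than 1 promoter, beside 633 of the 2753 optimal peaks in any promoter (23.0%).

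The sequences around the summits on which the results turn are shown first, read from the RefSeq genome of WBcel235 (ce11) 5' to 3' on the strand of the gene. Each covers the bases within 50 bp of the summit, less any exon of the gene. The first set is shown because these 4 peaks held TGATAAG, in capitals, where CTTATCA is the same motif on the other strand.
cyp-33E2, chrIV:8612239-8612333, strand +: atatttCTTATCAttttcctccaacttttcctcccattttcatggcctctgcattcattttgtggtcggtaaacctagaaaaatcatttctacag
cyp-35A2, chrV:7364228-7364328, strand -: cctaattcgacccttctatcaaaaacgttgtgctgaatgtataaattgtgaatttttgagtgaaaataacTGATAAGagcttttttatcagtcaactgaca
cyp-34A9, chrV:3970549-3970649, strand -: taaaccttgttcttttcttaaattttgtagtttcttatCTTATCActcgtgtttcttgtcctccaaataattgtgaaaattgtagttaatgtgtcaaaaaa
cyp-35A5, chrV:3936000-3936100, strand +: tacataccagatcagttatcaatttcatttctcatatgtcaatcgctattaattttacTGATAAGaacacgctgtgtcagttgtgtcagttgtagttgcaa
The next set holds the 3 strongest P450 promoter peaks, which lacked TGATAAG. The core GATA is in capitals on either strand, TATC being its complement.
cyp-37B1, chrV:16278044-16278115, strand +: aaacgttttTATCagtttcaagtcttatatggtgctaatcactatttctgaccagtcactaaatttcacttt
cyp-13A8, chrII:9807684-9807784, strand -: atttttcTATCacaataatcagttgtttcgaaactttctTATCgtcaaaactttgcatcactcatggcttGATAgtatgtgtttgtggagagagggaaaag
cyp-25A2, chrIII:3834977-3835077, strand +: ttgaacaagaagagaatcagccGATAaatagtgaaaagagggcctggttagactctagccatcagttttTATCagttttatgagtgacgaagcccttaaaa
The next set shows 3 peaks of the cyp-33C and cyp-13A arrays in which GATA was found on neither strand of the windows shown, the first being the peak shared by cyp-33C6 and cyp-33C7.
cyp-33C7, chrV:2250293-2250393, strand +: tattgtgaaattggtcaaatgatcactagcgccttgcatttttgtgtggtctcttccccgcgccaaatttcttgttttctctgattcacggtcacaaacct
cyp-13A5, chrII:9800416-9800516, strand -: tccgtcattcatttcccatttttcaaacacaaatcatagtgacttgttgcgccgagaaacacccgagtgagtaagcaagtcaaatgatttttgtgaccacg
cyp-33C4, chrV:2236020-2236120, strand +: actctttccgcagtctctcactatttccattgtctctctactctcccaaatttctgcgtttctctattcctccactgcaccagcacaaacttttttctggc
The last is from inside intron 4 of cyp-13A3, outside the promoter, and holds TGATAAG, in capitals, 2 times.
cyp-13A3, chrII:9791358-9791458, strand -: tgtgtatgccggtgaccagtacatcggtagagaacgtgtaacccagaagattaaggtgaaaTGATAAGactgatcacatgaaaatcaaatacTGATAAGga

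The strongest P450 promoter peak was that of cyp-37B1, with a signal of 136.0 and rank 174 of the optimal list (chrV:16278012-16278211, summit at -22). It ranked 113 in replicate 1 and 1220 in replicate 2. The peak of cyp-13A8 (chrII:9807655-9807821, -165) had a signal of 94.3 and rank 592. That of cyp-25A2 (chrIII:3834992-3835080, -194) had a signal of 80.1 and rank 918. All 3 were narrower than the usual 340 bp of the list, at 200, 167 and 89 bp. The summit windows of cyp-37B1 and cyp-25A2 shared a stretch of 14 identical bases that holds TTATCAG, the longest among the 231 pairs of P450 peaks, whose median was 8. Both windows also shared 11 bases with that of cyp-35A2, in the same direction relative to the genes. TTATCAG itself is common: on either strand it was at 22.7% of P450 peaks, 18.3% of all promoter peaks and 20% of all optimal peaks.

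Over the 22 peaks the signal had a median of 56.2, from 23.8 at cyp-35A5 to 136.0 at cyp-37B1, while all 2753 promoter peaks had a median of 43.6. Among the stronger 2780 peaks of the optimal list were the peaks of 17 P450 genes, beside those of 8.19% of all genes, and among the strongest 1000 those of 4, beside 2.88%. The median rank of the P450 peaks was 1855 of 5560, and 16 of the 22 lay in the stronger 2780. The peaks just inside the list were those of cyp-35A5, with a signal of 23.8 and rank 5559, and cyp-34A2, with 23.9 and rank 5535. Just outside it was cyp-33E3, the tandem neighbour of cyp-33E2, with a relaxed peak of signal 22.97 at -66.

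**Figure D1:**
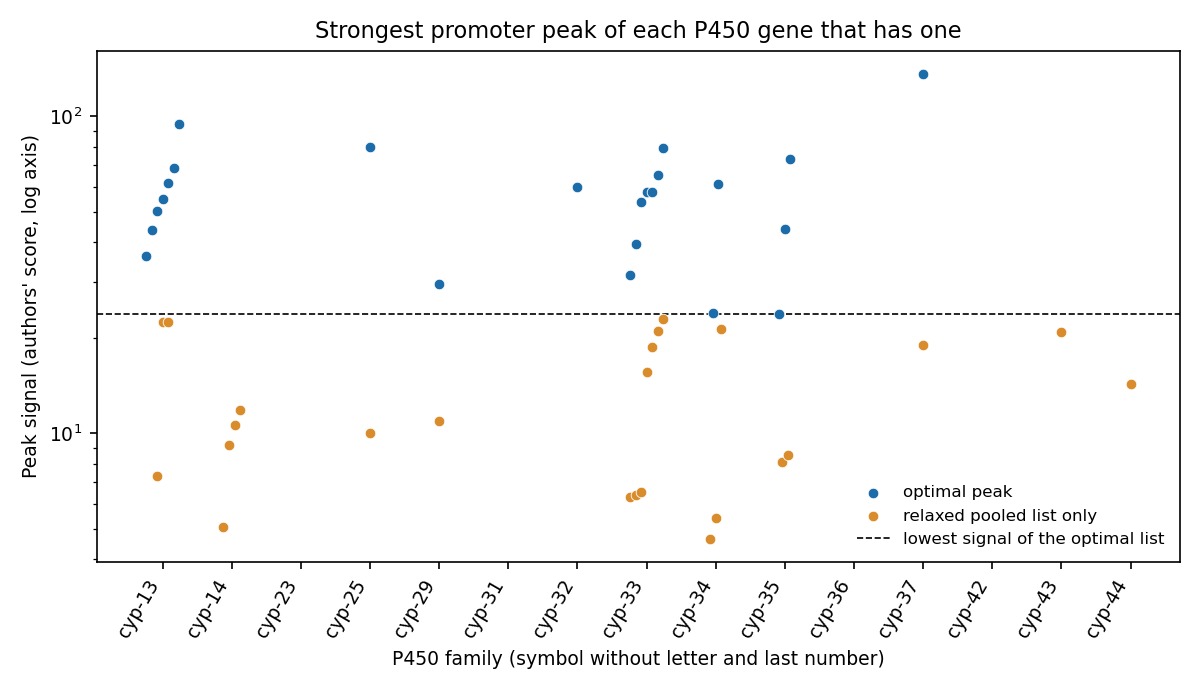
Signal of the strongest promoter peak (authors' score, log axis) for each P450 gene that has one, by family number, with optimal peaks in blue and peaks of the relaxed pooled list only in orange. The dashed line marks 23.8, the lowest signal of the optimal list, and the highest point is cyp-37B1 at 136.0.

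The cyp-13 family held 7 bound genes of 13 (53.8%, exact interval 25.1 to 80.8). Of these, 6 were among the 11 cyp-13A genes and 1, cyp-13B1, among the 2 cyp-13B genes. By sequence this family belongs with the CYP3-like group, whose vertebrate members metabolize many drugs. After cyp-13A8 the signals were 68.7 for cyp-13A1 at -36, 61.8 for cyp-13A2 at +136, and 54.8 for cyp-13A5 at -104. They were 50.2 for cyp-13A12 at -96, 43.8 for cyp-13B1 at -181 and 36.4 for cyp-13A4 at -80. The summit of cyp-13A2 lay in its 5' UTR, and the other 6 lay outside the gene. cyp-13A12, which is known for a behavioural response to reoxygenation, was bound while its tandem neighbour cyp-13A11 had a relaxed peak of signal 7.33.

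The cyp-33 family held 7 bound genes of 18 (38.9%, 17.3 to 64.3), over 6 peaks. cyp-33E2, which is known for making eicosanoids from polyunsaturated fatty acids, had a signal of 79.5 and rank 937 at -45. cyp-33A1 had 65.5 at -119. In the cyp-33C subfamily 5 of 11 genes were bound through 4 peaks, whose signals ran from 31.6 at cyp-33C8 to 57.6 at the peak of cyp-33C6 and cyp-33C7. That peak (chrV:2250173-2250512) had its summit at -197 from cyp-33C7 and at -933 from cyp-33C6, which is read from the other strand. A further 7 genes had a relaxed peak only, and cyp-33B1, cyp-33C1, cyp-33C11 and cyp-33D3 had no promoter summit in either list.

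The cyp-35 family, which holds many of the xenobiotic-inducible P450 genes of the worm, had 3 bound genes of 10 (30%, 6.67 to 65.2). cyp-35A2, known for its induction by xenobiotics and for a role in fat storage, had the strongest peak of the family, with a signal of 73.1 and rank 1142 at -96. cyp-35C1 had 44.2 at -93 and cyp-35A5 had 23.8 at -276. The 3 cyp-35B genes were unbound. cyp-35B1, known as a gene that is high in long-lived insulin receptor mutants, had no promoter summit in either list, and cyp-35B3 had a relaxed peak of signal 8.52. cyp-35D1, which metabolizes the drug thiabendazole, had none.

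The cyp-34A subfamily held 2 bound genes of 8 (25%, 3.19 to 65.1). cyp-34A9, also known from studies of insulin signalling and lifespan, had a signal of 61.1 and rank 1617 at -59, with TGATAAG near the summit. cyp-34A2 had 23.9 at +81, inside its coding sequence. The families cyp-25, cyp-29, cyp-32 and cyp-37 had 1 bound gene each, of 5, 3, 2 and 2 genes. The peaks of these last were 80.1 for cyp-25A2, 29.5 for cyp-29A2 at +19 in the 5' UTR, 59.8 for cyp-32B1 at -21 and 136.0 for cyp-37B1.

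No member was bound in cyp-14 (0 of 5, which allows a share of up to 52.2%), cyp-31 (0 of 3) or the single genes of cyp-23, cyp-36, cyp-42, cyp-43 and cyp-44. The cyp-14 and cyp-31 families differed in the relaxed list: 4 of 5 cyp-14A genes had a weak relaxed peak, with signals of 5.08 to 11.9, while none of the cyp-31A genes, of which cyp-31A2 and cyp-31A3 are known for a role in making the eggshell, had any. cyp-36A1, known to act downstream of HIF-1 in stress responses and behaviour, had no promoter summit in either list, and cyp-44A1, the single P450 of the mitochondrial type with this prefix, had a relaxed peak of signal 14.3. In all, 12 of 25 subfamilies had a bound member, and the 13 without held 22 genes. Family intervals overlap, so these shares give no order of the families.

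**Figure D2:**
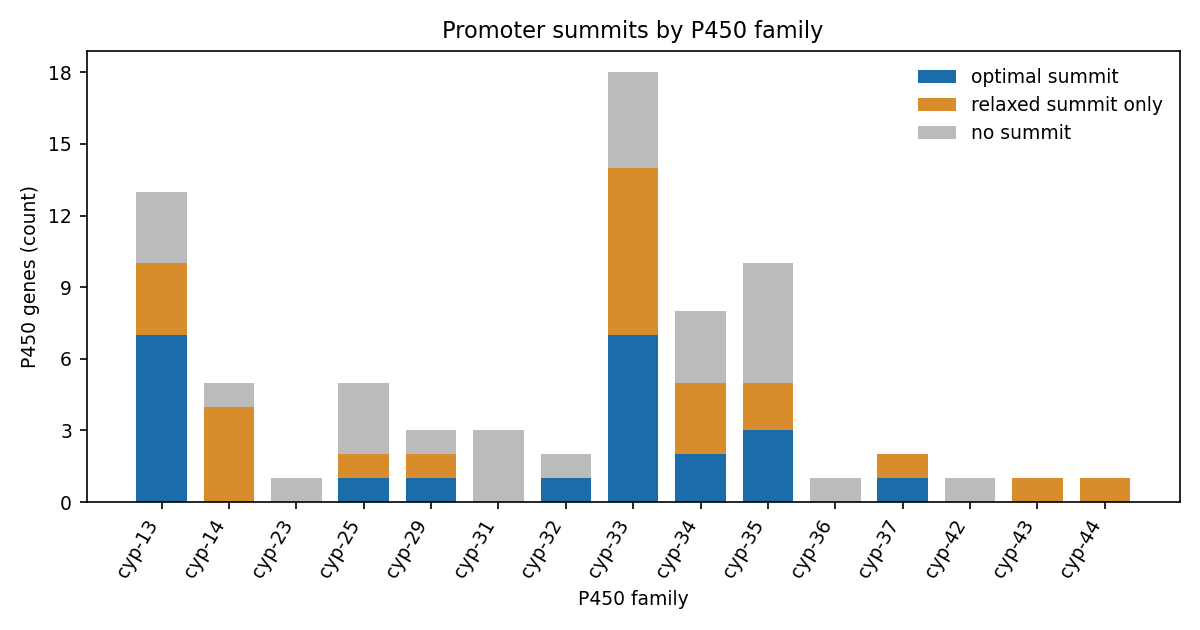
Number of P450 genes of each family with an optimal promoter summit (blue), with a summit in the relaxed pooled list only (orange) and with neither (grey). The cyp-13 and cyp-33 families hold 7 bound genes each, and cyp-14 and cyp-31 hold none.

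Much of the family lies in tandem. With at most 5000 bp between neighbouring genes, 41 of the 74 genes formed 12 runs, of 2 to 8 genes. A bound member was found in 10 runs, but no run had every member bound, and only 2 runs had more than 1 bound member. In runs 17 of 41 genes (41.5%) were bound, through 16 peaks, and outside runs 6 of 33 (18.2%), each by its own peak. Over all protein-coding genes the share was 16.3%, near that outside runs. Of the 17, 5 lie in the run cyp-13A1 to cyp-13A8 and 4 in the run cyp-33C4 to cyp-33C7. Only 1 run held a peak shared between members.

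The longest run, cyp-13A1 to cyp-13A8 on chromosome II, spans 28389 bp and holds 8 genes, of which 5 were bound, each by its own peak. Signals along it were 68.7 at cyp-13A1, 61.8 at cyp-13A2, 36.4 at cyp-13A4, 54.8 at cyp-13A5 and 94.3 at cyp-13A8. Unbound within it were cyp-13A3, cyp-13A6 and cyp-13A7. The last 2 are divergent neighbours and share a relaxed peak (chrII:9802668-9803007) with a signal of 22.4, just under the lowest optimal signal, at -17 from cyp-13A6 and -782 from cyp-13A7. That relaxed peak holds TGATAAG near its summit. cyp-13A7 is known for its induction by the drug rifampicin.

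The strongest optimal peak in the run did not lie in a promoter. It lay in intron 4 of cyp-13A3, a gene of 6 exons (chrII:9791273-9791524, summit at +1889), and had a signal of 151.8 and rank 104. It ranked 75 in replicate 1 and 501 in replicate 2. This intronic peak was stronger than every promoter peak of a P450 gene, and TGATAAG lies 2 times near its summit.

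The run cyp-33C4 to cyp-33C7 on chromosome V had 4 of 5 genes bound, through 3 peaks. Signals were 53.8 for cyp-33C4 at -70, 39.4 for cyp-33C5 at -31 and 57.6 for the peak of cyp-33C6 and cyp-33C7. The unbound member, cyp-33C3, had a relaxed peak of signal 21.0 at +42. A pair of weaker optimal summits lay in the run outside any P450 promoter, with signals of 26.2 at +2100 from cyp-33C4 and 27.7 at +1438 in a coding exon of cyp-33C7.

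Other runs mostly had a single bound member. Among the 6 genes from cyp-34A5 to cyp-34A10 only cyp-34A9 was bound, and among the 4 genes from cyp-35A5 to cyp-35B3 only cyp-35A5, the first gene of the array. The pairs cyp-33E2 and cyp-33E3, cyp-35A1 and cyp-35A2, cyp-13A11 and cyp-13A12, and cyp-34A1 and cyp-34A2 each had 1 bound member and 1 with a relaxed peak only. Relaxed signals of the partners were 22.97 for cyp-33E3, 8.12 for cyp-35A1, 7.33 for cyp-13A11 and 5.39 for cyp-34A1. The runs cyp-33C1 to cyp-33C2 and cyp-14A1 to cyp-14A3 had no bound gene.

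**Figure D3:**
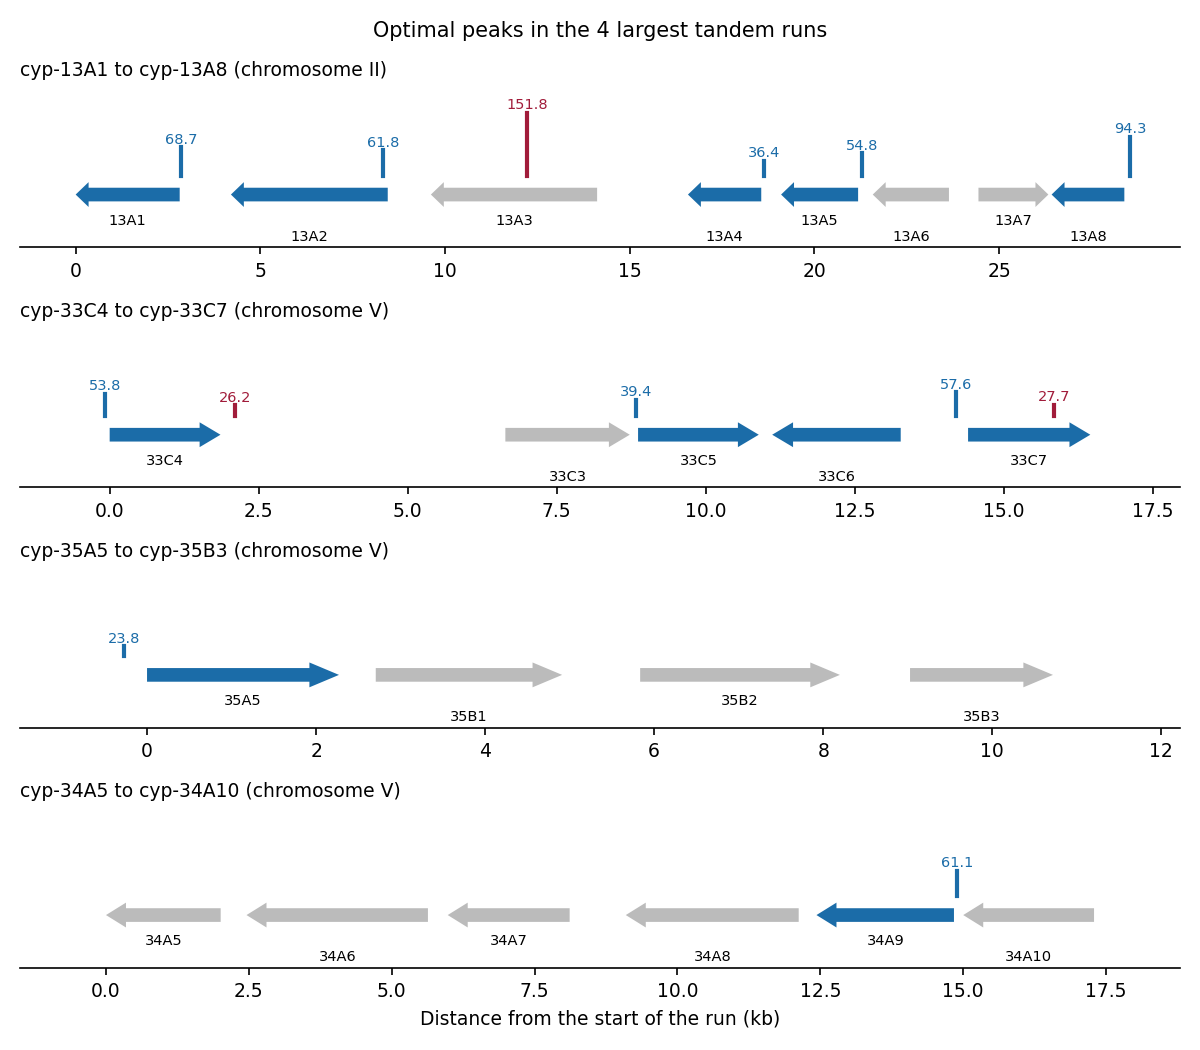
Genes (arrows, pointing 5' to 3') and optimal summits (vertical lines, height in proportion to the authors' signal, which is printed above) along the 4 tandem runs with the most genes, with distance in kb from the start of the run. Blue marks bound genes and their promoter peaks, grey unbound genes, and red summits outside every P450 promoter, the strongest being that in cyp-13A3 at 151.8.

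Duplicated genes can be so alike that reads fit several copies, and the labels and files do not state how such reads were handled. The share of each promoter's 36-base words that occur elsewhere in the genome was therefore counted. Its median was 1.23% over bound promoters, with the highest, 46.4%, at cyp-13A8, and 0 over unbound promoters, with the highest, 64.4%, at cyp-25A6. Next came cyp-25A3 (44.3%) and cyp-25A4 (42.4%) among unbound promoters, and cyp-13B1 (21.1%) among bound ones. Within the 22 peaks themselves no word was repeated except at cyp-33C4 (13.1%) and cyp-13A4 (4.26%). The part of repeated sequence in the calls was not tested beyond these shares.

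Bound P450 genes had their summits close to the 5' end, at a median of -80 and from -933 to +136. Over all 3260 bound genes the median was -211.5. The summit lay 0 to 200 bp upstream at 18 of 23 bound P450 genes (78.3%), beside 1307 of 3260 bound genes (40.1%). It lay outside the gene at 20, in the 5' UTR at 2 and in a coding exon at 1. The far exception was cyp-33C6, through the peak it shares with cyp-33C7.

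**Figure D4:**
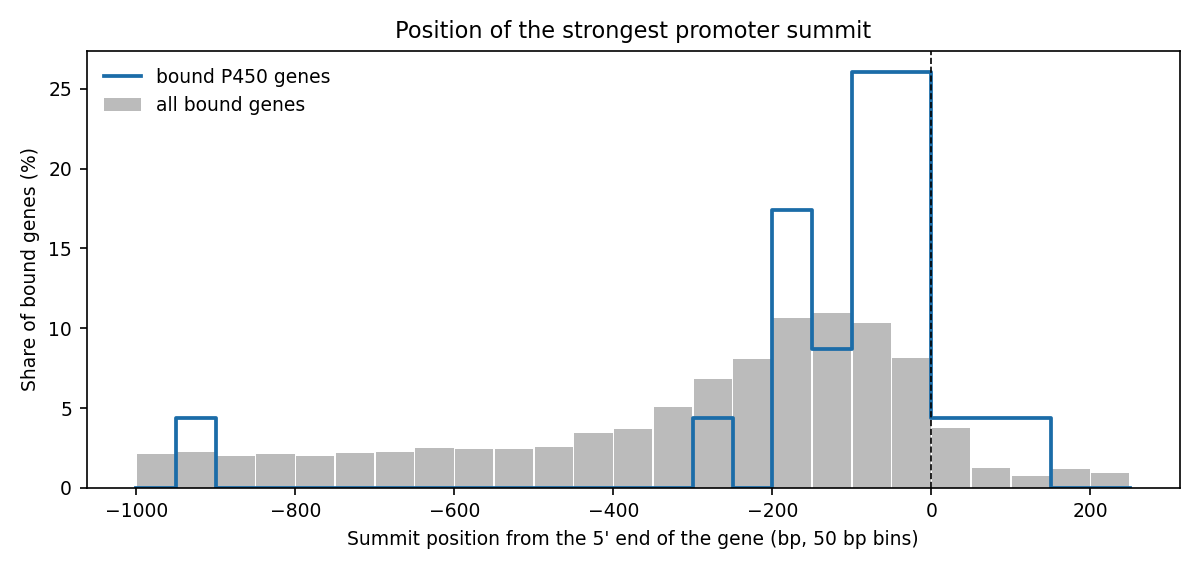
Share of bound genes (%) by position of the strongest promoter summit, in 50 bp bins across the promoter window, for the 23 bound P450 genes (blue line) and all 3260 bound genes (grey bars). P450 summits gather within 200 bp upstream, with 78.3% there beside 40.1% of all.

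Sequence near the summits was searched on both strands within 50 bp. TGATAAG was found at 4 of 22 P450 peaks (18.2%, exact interval 5.19 to 40.3), beside 21.9% of all promoter peaks and 23.9% of all optimal peaks. These 4 are the peaks of cyp-33E2, cyp-35A2, cyp-34A9 and cyp-35A5, with signals of 79.5, 73.1, 61.1 and 23.8. The share at P450 peaks did not exceed the background. GATAAG, the last 6 letters of that motif, was found at 5 (22.7%), beside 28.5% of all promoter peaks and 31% of all optimal peaks. The plain core GATA was found at 14 (63.6%), beside 66.9% of all promoter peaks and 70.7% of all optimal peaks.

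Other motifs were rare at P450 peaks, as in the whole list. AGATAA, another GATA factor sequence that can overlap GATAAG, was found at 1 peak (11.9% of all optimal peaks), and GAGAGAG, a repeat common in worm promoters, at 1 (8.29%), that of cyp-13A8. The E-box CACGTG was found at none of 22, which allows a share of up to 15.4%, beside 4.98%. GC content within 50 bp of the summit had a median of 36.1% at P450 peaks and 39.6% at all promoter peaks.

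Over whole promoters, TGATAAG was found in 9 of 23 bound P450 promoters (39.1%) and in 15 of 51 unbound ones (29.4%). Over all genes it was in 41.4% of bound and 20.9% of unbound promoters. From 250 bp before to 50 bp after the 5' end it was in 6 of 23 bound and 6 of 51 unbound P450 genes, beside 20.2% of all bound and 7.08% of all unbound genes. A match shows only that the letters are present.

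Replicate 1 held every P450 peak: all 22 overlapped one of its peaks by at least 1 bp, and all 22 one of its strongest 5560, where 91.3% of all optimal peaks did the latter. Replicate 2 held 20 of 22 in its relaxed list, beside 93.5% of all optimal peaks. Among its strongest 5560 it held 14 (63.6%), beside 71.7%. The peaks of cyp-33C5 and cyp-33C8 overlapped no replicate 2 peak. Those of cyp-33C4, cyp-35C1, cyp-13B1, cyp-29A2, cyp-34A2 and cyp-35A5 overlapped only weak ones, ranked from 9604 to 29464. Best placed in replicate 2 was the peak of cyp-33E2, at rank 498, which ranked 1467 in replicate 1.

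The optimal signals and the support from the replicates did not go together in every case. cyp-33C4 ranked 1370 in replicate 1 and 9604 in replicate 2, and cyp-35C1 ranked 3109 and 23145. cyp-13A4, with the lower optimal signal of 36.4, ranked 4464 and 2428. Called in each replicate alone by its strongest 5560 peaks, 16 of the 23 genes were bound both times. For 1 of them, cyp-29A2, the replicate 2 call came from a peak that does not overlap its optimal peak. The optimal peak itself overlapped only rank 15708 there. The 7 genes not bound by replicate 2 alone were cyp-33C4, cyp-33C5, cyp-33C8, cyp-35A5, cyp-35C1, cyp-34A2 and cyp-13B1.

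**Figure D5:**
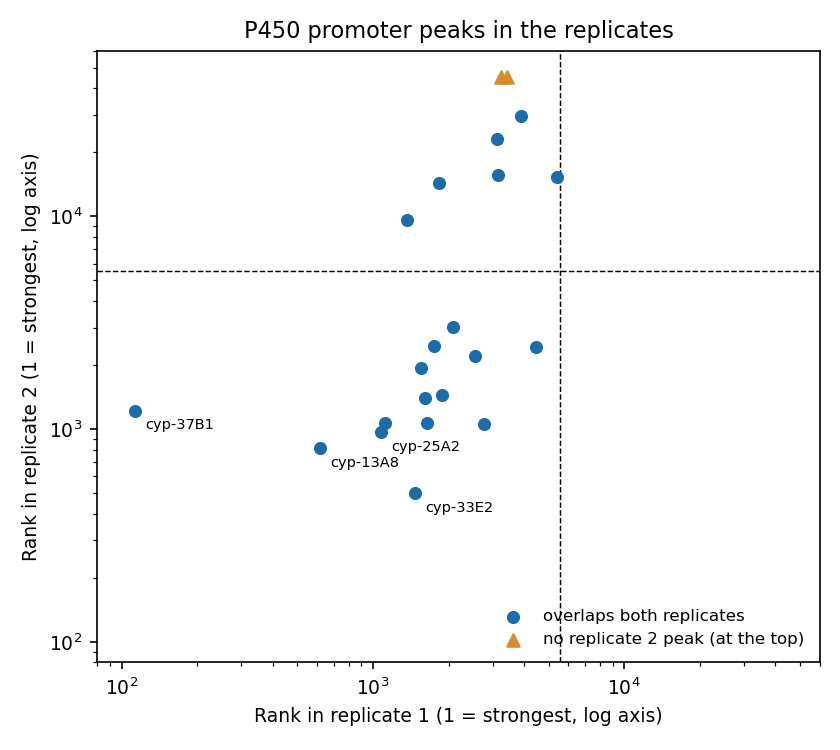
Rank of the peak overlapping each of the 22 P450 promoter peaks in the relaxed lists of replicate 1 and replicate 2 (1 is the strongest, log axes), with dashed lines at rank 5560. All 22 lie left of the line for replicate 1 and 14 lie below the line for replicate 2, and the triangles at the top are cyp-33C5 and cyp-33C8, which have no replicate 2 peak.

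Beside cyp-13A3, 5 unbound genes had an optimal summit in the gene or nearer to their 5' end than to any other. The peak of cyp-37A1 had a signal of 72.7 at -1406 and that of cyp-14A5 had 64.8 at -1929, both beyond the promoter as defined. Summits in coding exons were found in cyp-33D1, with a signal of 36.2 at +447, and cyp-43A1, with 28.98 at +1037. The peak in cyp-33D1 overlapped no replicate 2 peak, and that in cyp-43A1 only a weak one, of rank 23362. The peak of cyp-32B1 lay in the 3' UTR of its neighbour cyp-33C12. Binding near P450 genes was thus not limited to the promoters of the 23.

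The 24 genes with a relaxed peak only had signals of 4.65 to 22.97, with a median of 10.7, and 6 of them were above 20. Those 6 were cyp-33E3 (22.97), cyp-13A6 and cyp-13A7 (22.4, shared), cyp-34A6 (21.4), cyp-33C3 (21.0) and cyp-43A1 (20.9). All but cyp-43A1 lie in a run that also holds a bound gene. Besides the genes already named as such, those with no promoter summit in either list were cyp-13A10, cyp-13B2, cyp-14A2, cyp-23A1, cyp-25A3, cyp-25A4, cyp-25A6, cyp-29A4, cyp-32A1, cyp-34A7, cyp-34A8, cyp-34A10, cyp-35A3, cyp-35A4, cyp-35B2 and cyp-42A1. cyp-13A3 also had none, its summit being in the intron.

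A list of 22 genes that work with P450 enzymes was chosen by role, with earlier results of these data known. Of these, 9 were bound, beside 16.3% of all protein-coding genes. With 2 to 6 genes a role, the counts by role are too small to set against that share. Nearest 5' ends are not given for the peaks of these genes, so some may lie closer to another gene. Of the 4 genes listed under electron transfer, 2 were bound. These were emb-8, the P450 reductase, with a signal of 44.6 at -890, and cytb-5.1, a cytochrome b5, with 61.4 at -279. vem-1, a membrane steroid-binding protein, and cytb-5.2 were unbound. None of 5 genes of dafachronic acid, the sterol hormone of the dauer decision, was bound. These were daf-9, itself a P450 gene outside the cyp- symbols, daf-36, dhs-16, hsd-1 and the receptor gene daf-12. The gene body of daf-12 held 3 optimal summits.

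Among receptors and cofactors 3 of 6 were bound. nhr-8, a nuclear receptor of sterol and xenobiotic responses, had a signal of 148.2 and rank 120 at +37. nhr-176, the receptor known to act on cyp-35D1, had 37.9 at +32, and aha-1, partner of the aryl hydrocarbon receptor AHR-1, had 25.2 at -210. nhr-86, ahr-1 and mdt-15, the Mediator subunit of lipid and xenobiotic responses, were unbound. Both epoxide hydrolase genes, whose enzymes open the epoxides that P450 enzymes make, were bound: ceeh-1 with 155.3 and rank 92 at -893, and ceeh-2 with 30.1 at +188. Of 5 heme transport genes, hrg-1 (32.2 at -113) and hrg-4 (23.8 at -629) were bound, and hrg-3, hrg-7 and hrg-9 were not.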

How the data were processed

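The ce11 peak lists of both replicates, the pooled relaxed list and the optimal list were used, all in narrowPeak form. The signal is a score deposited by the authors with its scale not stated. The deposited −log10 q value was not used, and the deposited summit offset gave the summit position. Optimal peaks passed a threshold on the irreproducible discovery rate per the names of the deposited files, with the peak caller, aligner and threshold not given in the sources used here. Library fragments were 150 to 350 bp per the labels. The control library named in the labels, the ce10 lists and reads were not used here, so depth is unknown.

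Genes were taken from Ensembl release 115 without the mitochondrial chromosome, and sequence from the RefSeq genome, whose chromosome lengths match. Neither cyb-5.1 nor cyb-5.2 is a symbol of that annotation, which names cytb-5.1 and cytb-5.2. Promoter, run, overlap and motif counts are descriptions without a test. Shares have exact 95% intervals. Named genes were all bound P450 genes, the 5 unbound ones with the strongest relaxed promoter peaks, unbound ones with a nearby optimal summit, the partner genes and 7 chosen by name, and other genes named were chosen after their values were seen. The members and lists were chosen with earlier results of these data known. The counting code was tested on simulated data. Python 3.11.15 was used with numpy 2.4.6, pandas 2.3.3, scipy 1.17.1 and matplotlib 3.10.9. Alternatives were other promoter sizes, list lengths, gene 5' ends, run gaps, motif windows and each replicate alone, meaning the strongest 5560 peaks of the other replicate.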

Additional observations from a re-analysis of the deposited data

How the results depend on the processing

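The count of 23 bound P450 genes fell to 21 with a promoter of 500 bp upstream to 100 bp downstream (12.5% of all genes) and was 27 with 2000 to 500 bp (21.2%). It was 17 with the stronger 2780 peaks (8.19%) and 23 with any base of a peak in the promoter (17.4%). With the 5' ends of all transcripts it was 23, and with each peak given only to its nearest 5' end 21. For both of these settings the share over all genes was not counted, so they cannot be set against a background. Over the whole relaxed list the count was 47 of 74, beside 45.1% of all genes. When each run counted only by its gene of lowest chromosome coordinate, whatever the strand, 11 of 45 were bound. That setting has no share over all genes either. With the strongest 1000 peaks the count was 4 (2.88%), from 4 peaks in 4 subfamilies and 3 runs. Leaving out a replicate gave 21 to 24 genes. Without replicate 1 it was 21 (13.8%): 16 of the 23 were kept and cyp-13A6, cyp-13A7, cyp-33C2, cyp-35B3 and cyp-14A5 were gained. Without replicate 2 it was 24 (16.6%), with cyp-33E3 gained. Peaks shared by P450 promoters numbered 0 with the narrower promoter or the strongest 1000 peaks and 1 to 2 when a replicate was left out. Peaks with TGATAAG numbered 2 within 25 bp and 5 within 100 bp. TGATAA, a search chosen after seeing the data, gave 9 of 22 (40.9%), beside 39.4% of promoter peaks. Of 138 single-gene calls, those of the 23 bound genes over 6 settings, 104 stayed the same, and 4 genes were called in all 6. Genes gained in a setting are not counted there. The wider promoter contains the main one, so no call could be lost with it. No paired analysis was possible because there is 1 group only. Peak lists carry no depth, so how weak a binding each library could show is unknown. The causes of these moves were not tested.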
